A study of Mus musculus with 20 samples.

Results

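The probes described here are 383 of the 42006 distinct probes on a 2-colour mouse array. They were chosen by their measured values. Each was at least 0.8 lower on the log2 scale in untreated embryonic stem (ES) cells on day 1 than on day 0. On untreated day 2 it was back near the day 0 level. The remaining conditions asked for sample signal well above background on all day 0 and untreated day 2 arrays. They also asked for an untreated day 2 mean within 0.3 of day 0, a day 2 mean with continued tamoxifen within 0.3 of untreated day 2, and a day 4 mean after withdrawal within 1 of day 0. Of all probes, 17070 met every condition other than the day 1 fall and are called eligible here, so the members are 383 of 17070. A rise of 0.8 or more on untreated day 1 was found for 147 eligible probes.

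All groups were V6.5 mouse ES cells, a line from an F1 hybrid of C57BL/6 and 129/Sv, carrying a pCAG-Zscan4-ERT2 transgene. The cells are labelled ES_ZERT #18 and come from a selected clone, so every comparison is within that clone and no cells without the transgene enter it. Cells were grown as a monolayer on gelatin in ES medium with LIF. The groups were Day0, Day1 Tmx- and Day2 Tmx-- without tamoxifen; Day1 Tmx+, Day2 Tmx++, Day3 Tmx+++ and Day4 Tmx++++ with 200 nM tamoxifen throughout; and Day2 Tmx+-, Day3 Tmx+-- and Day4 Tmx+--- with tamoxifen on day 1 and plain medium from day 2. Each of the 10 groups had 2 arrays, and an untreated group of day 3 or day 4 is not analysed here. On every array the sample was labelled with Cy3 and a common reference, RNA pooled from 11 mouse cell lines and mixed with ES cell RNA, with Cy5.

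ES cells are derived from the inner cell mass of the blastocyst and keep dividing without differentiating in medium with LIF, a cytokine that acts through Stat3. Zscan4 genes encode zinc finger proteins of the early embryo that are switched on from time to time in a small minority of ES cells, where they are known for a role in telomere maintenance. ERT2 is a mutated ligand-binding domain of the oestrogen receptor that keeps a fused protein inactive until tamoxifen is bound, and the CAG promoter drives a transgene in nearly all cell types.

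The files pair each probe with an identifier and a 60-base sequence, but not with a gene. None of the 383 members matched the supplied RefSeq gene, promoter or miRNA tables (0 by name, and 0 by the whole sequence), so members are named by probe identifier and their place in the genome is not given. Marker genes of ES cells and of other cell types were for the same reason not checked.

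Some members share sequence and are not independent measurements. In all, 16 members form 8 pairs that share 20 or more bases. The shared runs of up to 30 bases follow, because each shows the same stretch being read by a pair of members. Capitals mark the bases that both probes hold, read 5′ to 3′ as in the files.
Z00052265-1 and Z00074530-1: AGCTCTGTATCTACTCACTGCTGCCTGTCT
Z00030491-1 and Z00032620-1: TGTTTTCCACATCTCCATTTGGTGTTAGCG
Z00043996-1 and Z00063282-1: GAGTGGATCCTGGCTTGGCAT
Z00027205-1 and Z00060656-1: GGGGAGAAGCTAGACGAAAGGGAAGC
Z00050588-1 and Z00067943-1: GTGGCTTTACGTTATGATTGACCGGAC

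Members of a pair gave similar values in both day 1 groups. In Day1 Tmx- the choice asked both members to be low, so their likeness there was partly set by it. Day1 Tmx+ did not enter the choice. Z00052265-1 and Z00074530-1 share 30 bases, at positions 27 to 56 of the former and 31 to 60 of the latter, counted from the 5′ end. Their normalised log2 ratios changed from Day0 by -0.80 and -0.87 in Day1 Tmx- and by -0.77 and -0.79 in Day1 Tmx+. Z00043996-1 and Z00063282-1, with 21 shared bases, changed by -0.93 and -1.003 in Day1 Tmx- and by -0.63 and -0.63 in Day1 Tmx+. This pair is among the members whose fall was smaller with tamoxifen. Z00035148-1 and Z00057355-1, which share 36 bases, changed by -1.33 and -1.33 in Day1 Tmx+. A further 8 probes that are no members share 20 or more bases with a member. Among them, Z00073833-1 shares 59 bases with the member Z00018047-1 and fell by 1.39 on the scale of the rule in Day1 Tmx-, against -1.34 for the member. It stayed outside because its Day2 Tmx++ minus Day2 Tmx-- difference of 0.31 passed the bound of 0.3. Of the 8, 2 did not show such a fall in Day1 Tmx-. Z00032019-1 shares 36 bases with Z00071904-1 and changed by -0.13, against -0.89 for the member. In Day1 Tmx+ it did fall, by -1.24 against -1.05 for the member. Z00077446-1 shares 24 bases with Z00057182-1, which changed by -0.90 in Day1 Tmx-. There Z00077446-1 changed by 2.51 but did not meet the condition on background.

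Before the values, 1 property of the arrays bears on them. The arrays were on 5 slides: Day0 and Day1 Tmx- on slide 1, Day1 Tmx+ and Day2 Tmx-- on slide 2, the other day 2 groups on slide 3, day 3 on slide 4 and day 4 on slide 5. Differences between groups of different slides cannot be told apart from differences between slides. Replicate arrays correlated at 0.985 to 0.995 over all probes tested. The Day1 Tmx- arrays were the least alike: the SD of the difference between both arrays over the members was 0.243 there (log2) against 0.0853 to 0.139 in the other groups.

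The fall on untreated day 1 is what the members were chosen by, so it is described without a test. On the scale of the rule, which is the log2 ratio of Agilent's processed sample and reference signals minus the array median, the members lay 0.802 to 2.43 below Day0 in Day1 Tmx-. The median change was -0.987. Both Day1 Tmx- arrays lay below both Day0 arrays for 380 of the 383 members, and for 33.1% of the other eligible probes. At the threshold, the members nearest inside it were Z00032927-1, Z00075198-1 and Z00023505-1, the first at -0.802, and the nearest probes outside it were Z00039502-1, Z00034134-1 and Z00026184-1, the first at -0.799.

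The values that follow are on another scale, the log2 ratio of sample over reference after normexp background correction with an offset of 50 and loess within each array. Differences are smaller here. An offset draws dim probes towards 0 change, but its part in this was not tested. The median change of the members from the Day0 mean was -0.734 and -0.759 on the Day1 Tmx- arrays. It was -0.677 and -0.666 on the Day1 Tmx+ arrays. On day 2 all 6 arrays lay near day 0, with medians from -0.135 to -0.000850. The rule held Day2 Tmx-- near Day0 and Day2 Tmx++ near Day2 Tmx--, so for these groups the choice set this. Day2 Tmx+-, which did not enter the choice, was at -0.0361 and -0.0553. The day 3 arrays were at -0.0938 and -0.0689 for Day3 Tmx+-- and at -0.0584 and -0.0637 for Day3 Tmx+++. On day 4 the members stood above day 0 on each array, at 0.313 and 0.350 for Day4 Tmx+--- and at 0.273 and 0.331 for Day4 Tmx++++. Over the other 16687 eligible probes the group medians stayed between -0.00725 and 0.0259.

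**Figure D1:**
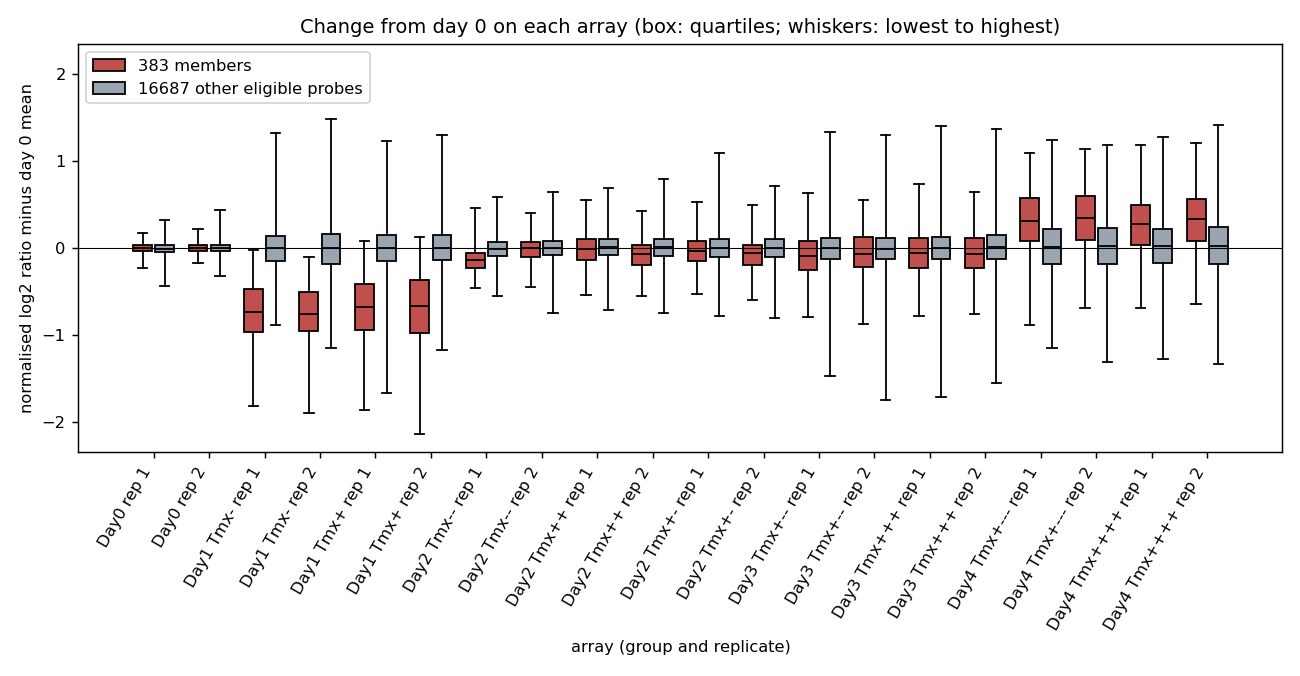
Change of the normalised log2 ratio from the Day0 mean on each of the 20 arrays, for the 383 members (red) and the 16687 other eligible probes (grey). Boxes span the quartiles with the median as a line, and whiskers run from the lowest to the highest probe. The member medians on the 4 day 1 arrays lie between -0.759 and -0.666, and those on the 4 day 4 arrays between 0.273 and 0.350.

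The members were thus also low on day 1 with tamoxifen, a group that the choice did not use, and a fall seen only in untreated cells is not what these arrays show. The median change from Day0 in Day1 Tmx+ was -0.674, and 2 members, Z00006695-1 and Z00032074-1, were not below Day0 by their means. Both Day1 Tmx+ arrays lay below both Day0 arrays for 367 members (95.8%), where 36.9% of all eligible probes did so. On the scale of the rule, 247 of the members (64.5%) were 0.8 or more below Day0 in Day1 Tmx+, against 0.911% of the other eligible probes. Because Day0 also entered the choice, these counts are a description with no test.

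Day1 Tmx+ can be set against Day2 Tmx-- within slide 2. The members were lower in Day1 Tmx+ by a median of 0.592 on the log2 scale (median difference -0.592). The 2 groups did not overlap for 357 members (93.2%), with both Day1 Tmx+ arrays the lower, which held for 34% of eligible probes. The fall from Day0 to Day1 Tmx- lies within slide 1, but it is what the members were chosen by. Day1 Tmx+ did not enter the choice, while Day2 Tmx-- was held near Day0 by the rule. Both differences are therefore a description with no test, and the part of slide differences was not tested.

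The difference between the day 1 groups themselves was small next to the fall they share. Day1 Tmx+ minus Day1 Tmx- had a median of 0.0445 over the members and ran from -0.613 to 0.853, with 239 members higher with tamoxifen. For 4 members the level with tamoxifen was over 0.5 higher and for 1 over 0.5 lower. Of the other 16687 eligible probes, 8642 were higher with tamoxifen, 24 over 0.5 higher and 13 over 0.5 lower. On the scale of the rule the median was 0.0925, and 42 members were over 0.5 higher and 9 over 0.5 lower. The other eligible probes had a median of 0.0113 there, with 127 over 0.5 higher and 105 over 0.5 lower. As the members were chosen for being low in Day1 Tmx-, no test is given.

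The fall was in the sample channel. The values here are log2 processed signals, each channel minus its own array median. The median change of the members from Day0 in the Cy3 channel was -0.993 and -1.10 on the Day1 Tmx- arrays. On the Day1 Tmx+ arrays it was -0.933 and -0.968. In the Cy5 reference channel, whose RNA is the same on every array, the members' medians lay between -0.121 and 0.0268 on all 20 arrays. On day 4 the sample channel was above day 0 by a median of 0.189 to 0.347, while the other eligible probes were below 0 in that channel. Fewer cells expressing a transcript and less of it per cell cannot be told apart in such bulk RNA.

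**Figure D2:**
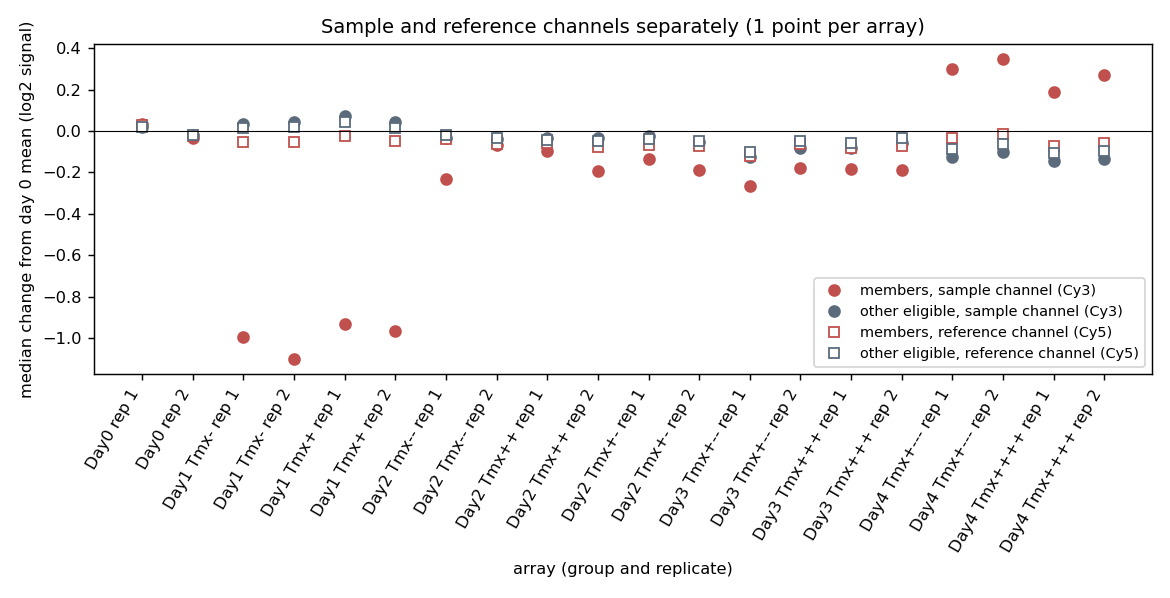
Median change from the Day0 mean of the log2 processed signal on each array, each channel minus its own array median. The sample channel (filled circles) and the reference channel (open squares) are drawn separately, for members (red) and other eligible probes (grey). The members' sample channel lies between -1.10 and -0.933 on the 4 day 1 arrays, and their reference channel stays between -0.121 and 0.0268 on all arrays.

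The members with the deepest falls seen on both arrays began at different levels. Z00002099-1 had normalised log2 ratios of -0.66 and -0.64 on the Day0 arrays, -2.46 and -2.18 in Day1 Tmx-, and -2.51 and -2.78 in Day1 Tmx+. By day 2 it was at or above its Day0 level, at -0.53 and -0.35 in Day2 Tmx-- and -0.12 and -0.27 in Day2 Tmx+-. None of its day 1 arrays overlapped any array of the other days. Z00033769-1 was more abundant in the sample than in the reference, at 1.70 and 1.68 on Day0, 0.30 and 0.26 in Day1 Tmx-, and 0.36 and 0.33 in Day1 Tmx+. Its Day2 Tmx+- arrays were at 1.42 and 1.27, below its Day0 level. Z00016200-1 was at -0.63 and -0.74 on Day0, -2.13 and -2.23 in Day1 Tmx-, -2.11 and -2.07 in Day1 Tmx+ and -1.06 and -1.08 in Day2 Tmx+-. On day 4 it reached 0.19 and 0.10 in Day4 Tmx+--- and 0.05 and 0.21 in Day4 Tmx++++. Its level therefore stood above Day0 on all 4 day 4 arrays.

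Among the 10 members with the lowest change on the scale of the rule, several were dim on day 1. Z00032187-1 had the lowest change, -2.43, and was not well above background on any of the 4 day 1 arrays. Its normalised ratio was 0.71 and 0.66 on Day0 and 0.25 and 0.03 in Day1 Tmx-. The mean change was -0.547 on that scale, a smaller fall than on the scale of the rule. The part of background handling in this was not tested. Z00070708-1 was also not well above background on the day 1 arrays. In all, 11 members were not well above background on either Day1 Tmx- array and 12 on either Day1 Tmx+ array, while 339 were above it on all 20 arrays. Z00010882-1, the next lowest at -2.04, was above background on all arrays, with ratios of -0.35 and -0.44 on Day0, -1.40 and -1.32 in Day1 Tmx- and -1.56 and -1.48 in Day1 Tmx+. The others of the 10 were Z00063561-1, Z00075223-1, Z00049911-1, Z00074530-1, Z00075886-1, Z00047547-1 and Z00024231-1. All 4 day 3 arrays lay above both Day0 arrays for 3 of the 10, which is no trait of the members. Both Day3 Tmx+-- arrays lay above both Day0 arrays for 27.4% of members and 33.7% of other eligible probes. For Day3 Tmx+++ the shares were 28.2% and 35.2%. Z00075223-1 was at 0.46 and 0.54 in Day3 Tmx+-- and 0.65 and 0.62 in Day3 Tmx+++, against 0.38 and 0.23 on Day0. Z00049911-1 was at 1.35 and 1.26 and at 1.20 and 1.16 in the same groups, against 1.08 and 1.11 on Day0. Z00075886-1 was at -0.49 and -0.62 and at -0.54 and -0.51, against -0.69 and -0.87 on Day0.

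**Figure D3:**
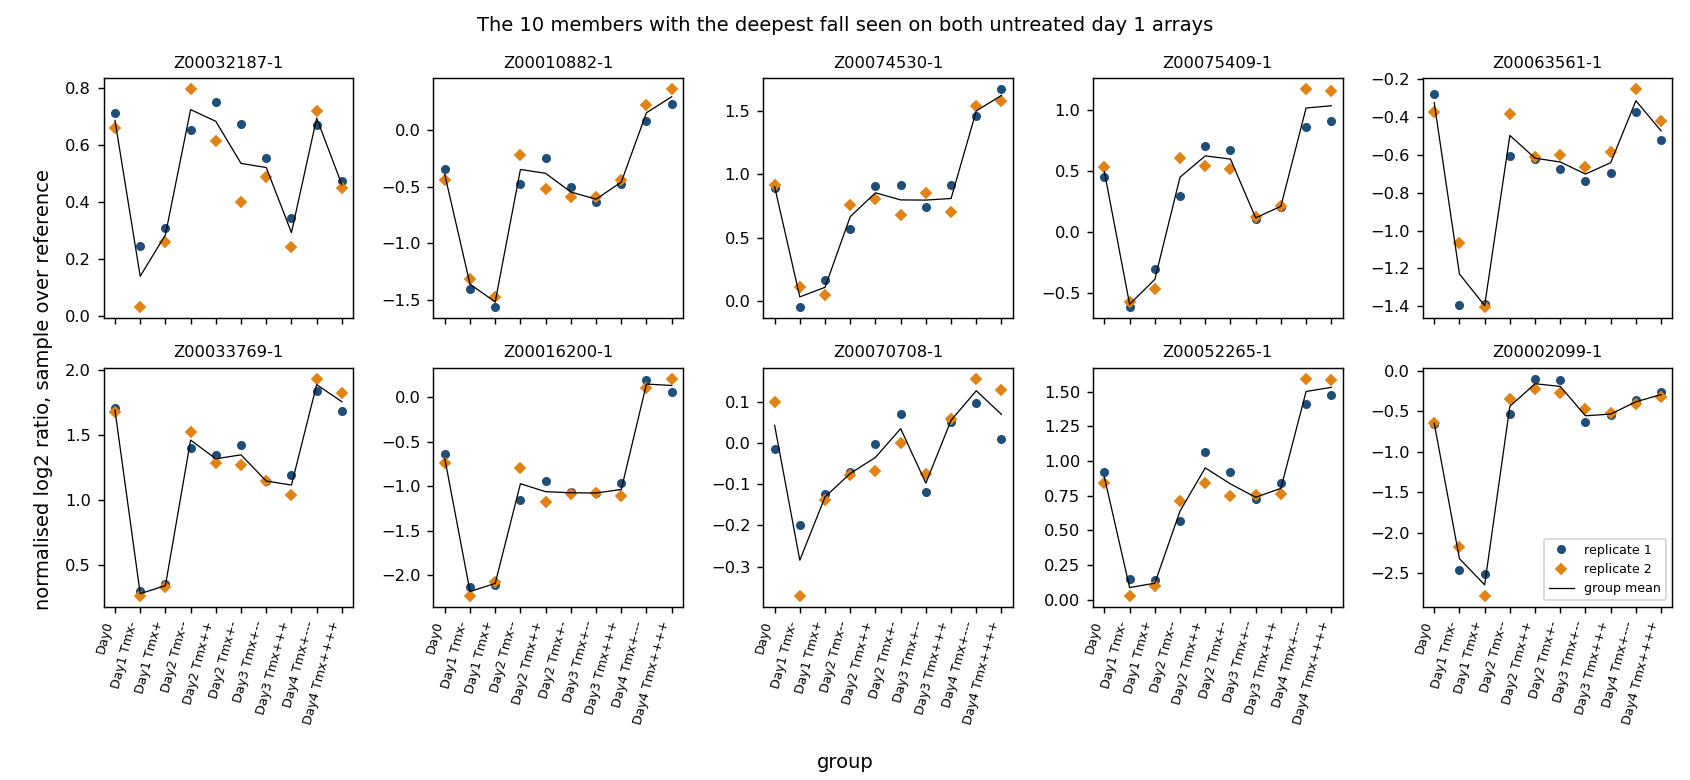
Normalised log2 ratio of sample over reference by group for the 10 members with the deepest fall seen on both Day1 Tmx- arrays, 1 panel each with its own vertical scale. Circles and diamonds are the 2 replicate arrays and the line joins group means. In each panel both day 1 groups lie below Day0, also for Z00002099-1, which fell from -0.66 and -0.64 to -2.46 and -2.18.

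Only comparisons between groups that did not enter the choice were tested. These were 4 comparisons, each taken from 1 limma fit over 29414 probes with Benjamini-Hochberg adjustment over all of them, and a probe was called at an adjusted p under 0.05. All 383 members were among the probes tested. Whether replicates were separate cultures is not given in the labels, so a p-value here rests on array-to-array spread that could be purely technical.

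The first asked whether the members recover between day 1 with tamoxifen and day 2 after its withdrawal. From Day1 Tmx+ to Day2 Tmx+-, 338 members (88.3%) rose and 0 fell, where 21.4% of all probes tested rose and 18.2% fell (limma, adjusted p under 0.05); by the unadjusted p under 0.05, 347 members (90.6%) and 46.6% of all probes tested differed. The median difference was 0.61 on the log2 scale, or 1.53-fold, with quartiles of 0.365 and 0.880, against 0.00479 over all probes tested. A rise of over 2-fold was called for 65 of the 383 members and for 0.772% of all probes tested. The fitted difference was above 0 for 375 members, and 45 members were not called. Of the 12 members not well above background on either Day1 Tmx+ array, 9 were called. The rule asked for signal above background on Day0 and Day2 Tmx--, and no share was taken over equally dim probes. The count is therefore only a description. The comparison spans slides 2 and 3. Day, withdrawal of tamoxifen and slide change together in it, so their parts cannot be told apart.

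The largest rise was that of Z00002099-1, from -2.51 and -2.78 to -0.12 and -0.27. Its log2 difference was 2.45 (SE 0.0975, limma adjusted p = 1.51e-11), or 5.46-fold. Z00035307-1 rose from -2.49 and -2.59 to -0.92 and -1.07, by 1.54 (SE 0.0828, limma adjusted p = 4.71e-10). Its Day2 Tmx+- arrays lay close to its Day0 arrays, which were at -0.88 and -0.91. Z00067322-1 rose from -3.22 and -3.31 to -1.74 and -1.88, by 1.45 (SE 0.0817, limma adjusted p = 7.86e-10). This probe was brighter in the reference than in the sample in every group. The overlapping probes Z00035148-1 and Z00057355-1 rose by 1.34 and 1.35.

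**Figure D4:**
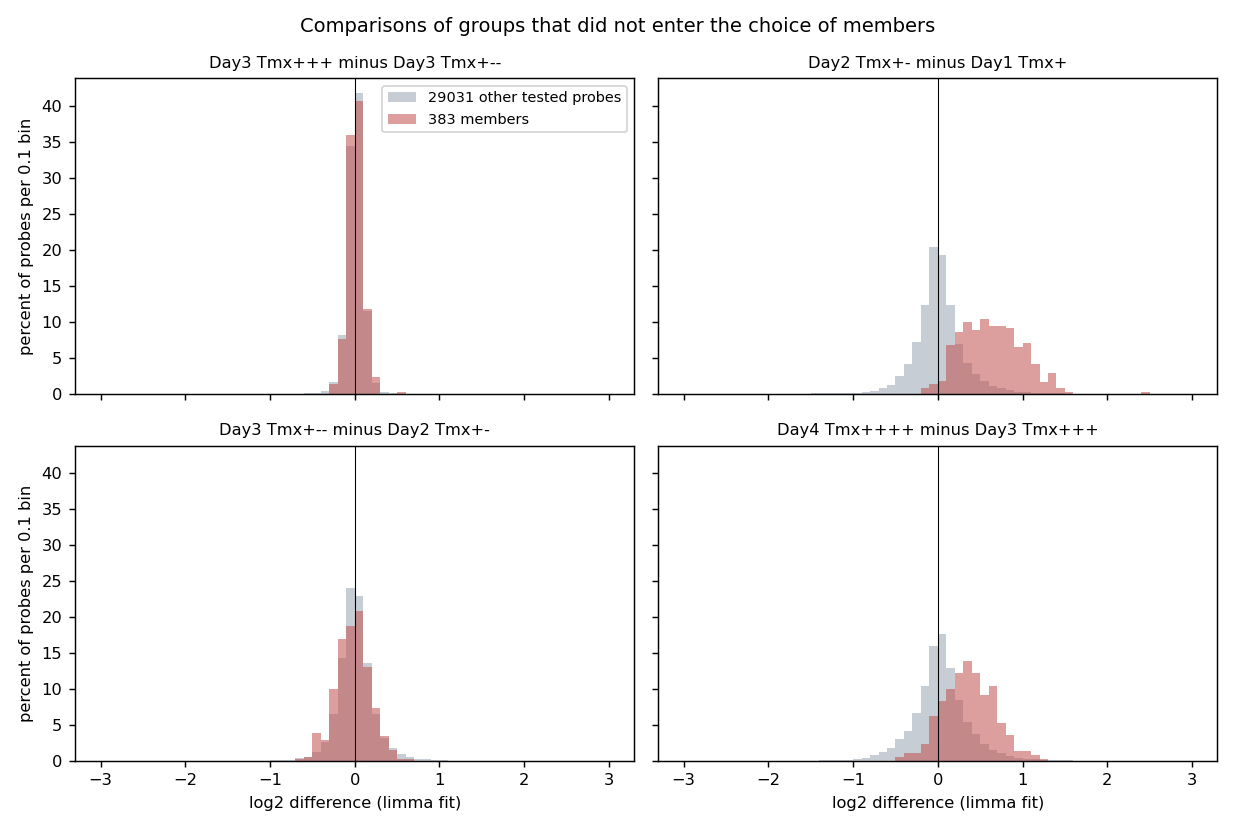
Distribution of fitted log2 differences in the 4 comparisons whose groups did not enter the choice, as percent of probes in bins of 0.1, for the 383 members (red) and the other 29031 probes tested (grey). The members are shifted to the right in Day2 Tmx+- minus Day1 Tmx+ (median 0.61) and in Day4 Tmx++++ minus Day3 Tmx+++ (median 0.35). They lie over the other probes in both remaining panels. Differences beyond 3 are drawn in the end bins.

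From Day2 Tmx+- to Day3 Tmx+--, both after withdrawal, members moved in both directions. Of the 383, 39 (10.2%) rose and 55 (14.4%) fell, near the 13.7% and 11.7% of all probes tested, and the median difference was -0.018. These counts were not stable: they were 22 in all with the local backgrounds as given and 142 when the fit held no other groups, against 94 here, and the median was 0.0216 with median centring. Leaving out a single array gave 43 to 150, with 43 without Day2 Tmx+- replicate 1, 50 and 51 without the first and the second Day3 Tmx+-- array, and 150 without Day1 Tmx- replicate 1, for which the members were chosen anew. Z00059513-1 fell from -0.09 and -0.19 to -0.73 and -0.81, by 0.63 (SE 0.0755, limma adjusted p = 1.52e-05). Z00034446-1 fell from 2.05 and 1.98 to 1.42 and 1.49, by 0.56 (SE 0.0566, limma adjusted p = 2.71e-06). Both had returned to Day0 or above on day 2 before falling again on day 3. Z00005662-1 went the other way, from 1.55 and 1.50 to 2.11 and 2.15, a rise of 0.61 (SE 0.0932, limma adjusted p = 0.000164). The comparison spans slides 3 and 4.

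On day 3, continued and withdrawn tamoxifen were compared within slide 4. For Day3 Tmx+++ minus Day3 Tmx+--, limma called 0 members higher and 0 lower, against 0.153% and 0.367% of all probes tested. By the unadjusted p under 0.05, 29 members (7.57%) differed, and 2737 of all probes (9.31%). The median difference was 0.0134 and the fitted differences ran from -0.238 to 0.511. For Z00002099-1 it was 0.02 (SE 0.0975, limma adjusted p = 0.98), and for Z00016200-1 0.04 (SE 0.0978, limma adjusted p = 0.959).

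With tamoxifen kept on, the members rose again from day 3 to day 4. From Day3 Tmx+++ to Day4 Tmx++++, 266 members (69.5%) rose and 9 (2.35%) fell, against 27.7% and 20.5% of all probes tested, and the median difference was 0.35 against 0.0297. Of the risen members, 9 did so by over 2-fold, which is 2.35% of the 383 against 0.792% of all probes tested. Members called higher both here and from Day1 Tmx+ to Day2 Tmx+- numbered 251 (65.5%), against 12.6% of all probes tested. The count of members called was 183 with the local backgrounds as given, against 275 here. The comparison spans slides 4 and 5.

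The largest rise was that of Z00055767-1, from -2.37 and -2.40 to -1.29 and -1.06, a log2 difference of 1.21 (SE 0.083, limma adjusted p = 7.4e-09). Z00016200-1 rose by 1.17 (SE 0.0978, limma adjusted p = 6.05e-08), from -0.97 and -1.10 to 0.05 and 0.21. Z00074228-1 rose by 1.11 (SE 0.0713, limma adjusted p = 3.79e-09), from -2.74 and -2.80 to -1.72 and -1.59. In all 3 the day 4 arrays lay above the Day0 arrays. Z00049911-1 was among the 9 that fell, from 1.20 and 1.16 to 0.80 and 0.70 (log2 difference -0.43, SE 0.0938, limma adjusted p = 0.00106).

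Set against Day0, both day 4 groups were alike in direction. In Day4 Tmx++++, which did not enter the choice, both arrays lay above both Day0 arrays for 278 members (72.6%) and for 43.2% of the other eligible probes, and the median change was 0.297. In Day4 Tmx+---, which entered the choice only through its bound of 1, this held for 294 members (76.8%) and for 41.7% of the other eligible probes, and the median change was 0.327. No test is given, as Day0 chose the members.

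Apart from their time course, the members were dimmer than other eligible probes and somewhat lower in GC. Their median processed sample signal on Day0 was 673 against 1657, and the median GC content of the 60 bases was 43.3% against 45%. Against the reference they were spread more widely: 62 members (16.2%) had a Day0 log2 ratio above 1 and 59 (15.4%) one below -1, against 5.74% and 10.1% of the other eligible probes. The median Day0 ratio was 0.174 against 0.00478. The part of signal level in the choice of members was not tested. On the array surface, the members' spots fell in all 4 blocks made by splitting rows and columns at the middle, with 103, 96, 76 and 108 in each. These were 26.9%, 25.1%, 19.8% and 28.2% of the members, against 23.9%, 25.6%, 24.9% and 25.7% of the other eligible probes.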

How the data were processed

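Per the file headers, the deposited scanner tables came from Agilent Feature Extraction (version 9.5.1.1) and give linear intensity in both channels at 43451 spots. The authors' deposited series matrix (25030 values per array) follows log10 of the processed sample signal (r of 0.9935 to 0.9973), with its centring unknown and column medians of 2.305 to 2.336. It served as an alternative. The rule was applied to processed signals. For tests, mean signals were corrected with normexp (offset 50) after 12 local backgrounds above 10 times the median were replaced by it, normalised by loess and fitted with limma 3.58.1 in R 4.3.3 to all 20 arrays (10 residual degrees of freedom). Control spots had weight 0 in loess and were dropped, and 1 non-uniform member value was set to missing. A probe was tested if well above background on both arrays of a group. The number of arrays limits the precision. On simulated data, the fit called 98% of log2 changes of 0.5 and 100% of log2 changes of 1 among 29414 probes, with 10 false calls. The simulation held 100 changed probes per size, independent noise and no slide differences. Its shares need not hold for the real comparisons. The members, lists and tests were chosen with earlier results of these data known. Named are the 10 lowest members on the rule's scale, the 10 deepest on both arrays, the 3 on either side of the threshold and up to 3 called per comparison by size; members sharing sequence, those not lower in Day1 Tmx+ and Z00049911-1 in the day 4 comparison are named besides. Gene lists and cell type markers were not applied, since no probe was paired with a gene.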

Additional observations from a re-analysis of the deposited data

How the results depend on the processing

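From Day1 Tmx+ to Day2 Tmx+-, 251 members were called with local backgrounds as given, and 224 of the 246 members in the series matrix. The median difference of 0.6122 was 0.8432 with Agilent's processed signals, 0.8532 in the series matrix and 0.5323 in the sample channel alone. It was 0.6791 for probes above background on all arrays, and 0.5921 to 0.635 with 1 array of these groups left out. Without Day1 Tmx- replicate 1 the members were chosen anew, giving 463 in place of 383. Over those the median difference was 0.4553. From Day2 Tmx+- to Day3 Tmx+--, 94 called members became 22 with local backgrounds as given, 54 in the series matrix and 142 with only these groups, and 43 to 150 with 1 array left out. The median of -0.01803 was -0.06709 (processed), -0.05049 (series matrix) and 0.02159 (median centring). With 1 array of these groups left out it was -0.04968 to 0.002339, and over the 463 members chosen anew 0.01467. The cause was not tested. From Day3 Tmx+++ to Day4 Tmx++++, 275 called members became 183 with backgrounds as given and 166 in the series matrix. The median of 0.3517 was 0.4131 (processed), 0.2594 (median centring) and 0.3985 (series matrix). With 1 array of these groups left out it was 0.337 to 0.377, and over the 463 members chosen anew 0.3035. On day 3, 0 members were called, 0 to 1 with 1 array left out, and the median was 0.04819 (processed) and 0.03471 (median centring). The untreated day 1 fall of -0.7875 was -0.5693 with backgrounds as given, -0.9865 (processed), -0.7539 (median centring), -0.7323 (sample channel), -0.9489 (series matrix) and -0.7731 to -0.7343 with 1 array left out. Applied to the normalised ratios, the rule gave 198 members in place of 383, of which 166 were shared, and leaving out 1 array of Day0 or Day1 Tmx- gave 357 to 463.

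The replicate numbers pair no samples by the labels. With the replicate number as a block, 1 member was called on day 3 in place of 0. Replicate differences of the groups compared correlated at -0.0081, 0.164, -0.0089 and -0.0056. Of the tests of single probes under the alternatives, 17 lost the call, 11 of them for Z00070708-1 and 6 for Z00032187-1, 5 gained it and 0 reversed.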
